A study of Drosophila melanogaster with 24 samples.

Results

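Glycolysis was followed through 9 probe sets that stand for 8 of 10 listed Drosophila melanogaster genes: Hex-A, Pgi, Pfk, Ald1, Tpi, Gapdh1, Pgk and Eno. A probe set was included where the platform annotation gave it exactly 1 gene symbol and that symbol was on the list. Ald1 was read by 2 probe sets, 1631993_s_at and 1633473_s_at, and each other gene by 1. Gapdh2 and PyK had no probe set named in this way and were not analysed here. The array held 18769 probe sets, of which 11439 had a median Signal of at least 75 and were tested, among them all 9 glycolytic ones.

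RNA came from whole virgin flies aged 3 to 7 days at generation 25 of artificial selection for locomotor reactivity, the activity of a fly just after a mechanical disturbance. All lines descended from 1 outbred base population. High (H) lines were bred from the most active flies, Low (L) lines from the least active, and Control (C) lines were unselected. Each group had 2 replicate lines, and each line gave 2 pooled samples of females and 2 of males, for 24 arrays, 8 per group and 4 per group and sex. Unless line means or line as a random block are named, the error of a test is the spread between the 2 samples of a line and sex. A group is represented by only 2 lines, so a difference between groups cannot be told apart from drift between lines by these p-values. The sex labels followed the data: 3 of 3 yolk protein probe sets were lower and 3 of 3 accessory gland probe sets higher in males.

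Glycolysis splits glucose into pyruvate in the cytosol and yields ATP and NADH without oxygen. Hexokinase, phosphoglucose isomerase and phosphofructokinase prepare the sugar, aldolase cuts it into triose phosphates, and triose phosphate isomerase interconverts these. Glyceraldehyde 3-phosphate dehydrogenase, phosphoglycerate kinase and enolase then belong to the stretch in which energy is recovered. Insect flight muscle, which burns carbohydrate at a very high rate, is known for its abundance of these enzymes. In whole-fly RNA, a change in the number of cells of a type and a change in RNA per cell cannot be told apart.

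Each of the 9 glycolytic probe sets read far above the filter on all 24 arrays. The enzymes of the preparatory steps spanned these Signal ranges, on the linear scale. Hex-A, the hexokinase that phosphorylates glucose, ranged from 2460 to 4061, Pgi, which converts glucose 6-phosphate to fructose 6-phosphate, from 6586 to 9863, and Pfk, whose product commits sugar to glycolysis, from 2575 to 6136. Different probe sets respond differently to their transcripts, so these levels cannot be ranked against each other.

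Aldolase, which cleaves fructose 1,6-bisphosphate, gave 9356 to 14420 at Ald1 (1631993_s_at) and 2144 to 6616 at Ald1 (1633473_s_at). Tpi, which interconverts the triose phosphates, ranged from 8663 to 14022. In the energy-yielding steps, Gapdh1, which makes NADH, ranged from 12338 to 20194, Pgk, which makes ATP, from 5163 to 9566, and Eno, which makes phosphoenolpyruvate, from 11098 to 16525. Replicate samples of a line and sex were closest for Pgi and Hex-A, with a standard deviation of 0.0873 and 0.088 in log2(Signal), and farthest apart for Pfk, with 0.244. The median over all probe sets tested was 0.192.

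**Figure D1:**
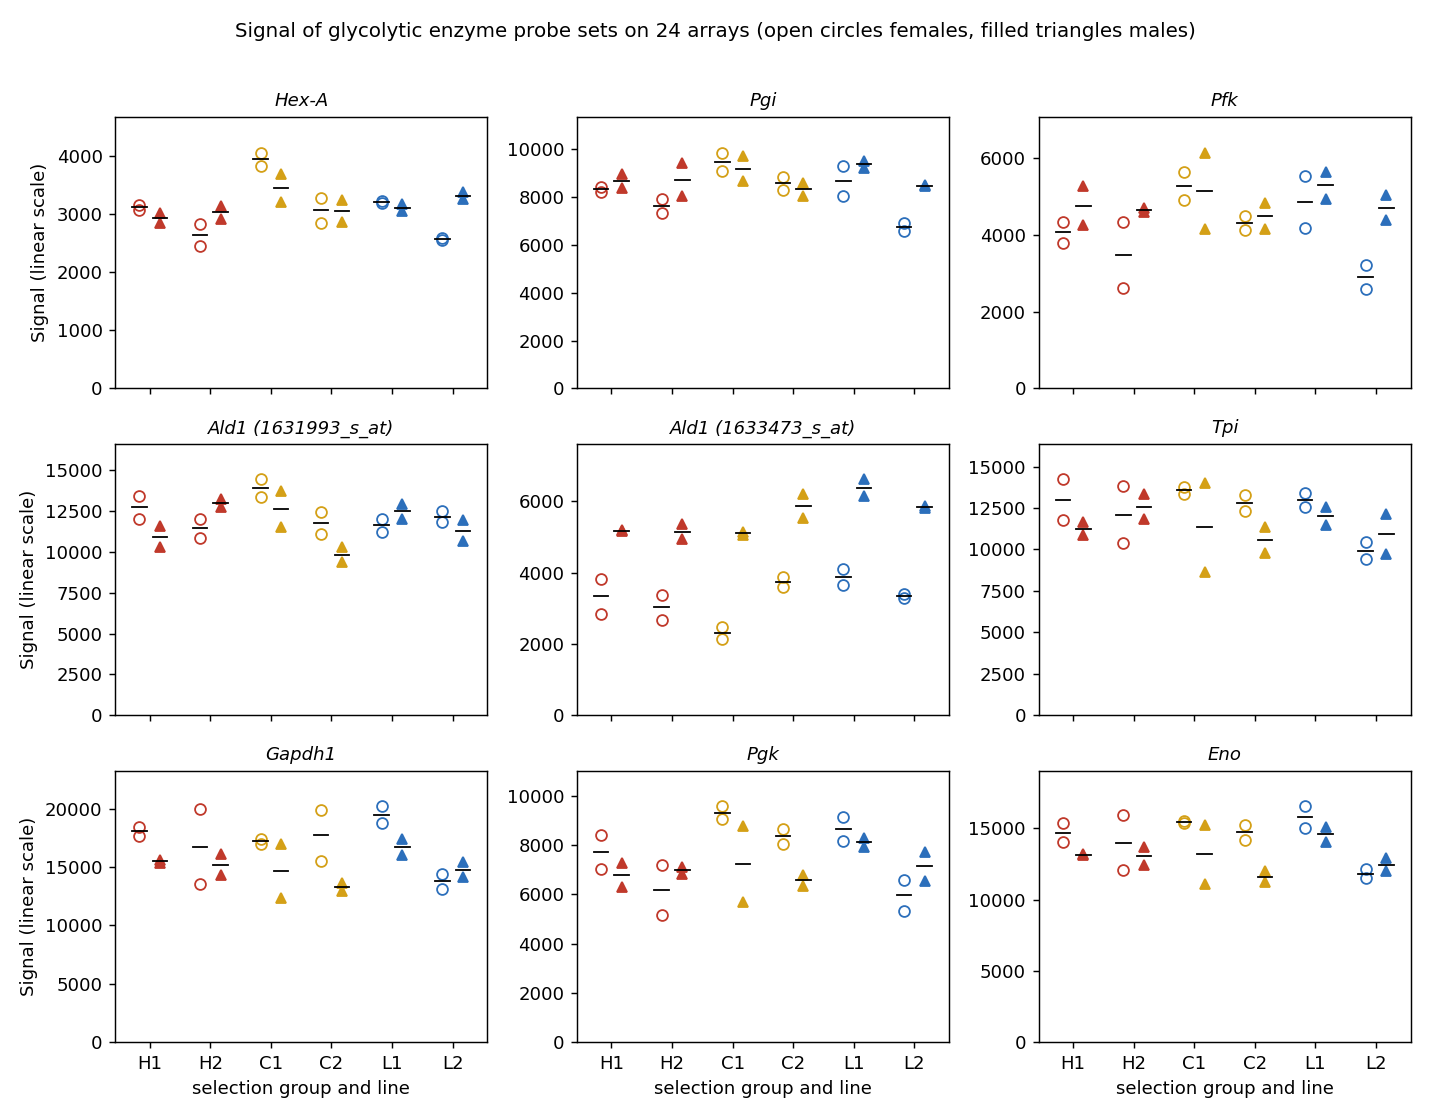
Signal (linear scale, from 0) of the 9 glycolytic probe sets in the H, C and L lines 1 and 2; each point is 1 array, open circles are females, filled triangles are males, and the bar is the mean of the 2 arrays. Males sit above females at Ald1 (1633473_s_at) in every line, and the L line 2 females lie low in Pgi, Pfk, Pgk and Eno.

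As the arrays were scaled, a sex difference in glycolytic mRNA was called at an Ald1 probe set, which was higher in males, and at no other probe set of the 9. At an adjusted p under 0.001 (limma, Benjamini-Hochberg), 1 of the 9 was higher in males and 0 were lower, where 25.6% of all probe sets tested were called higher and 43.9% lower, 69.5% in all. The 8 not called differed by between -0.19 and 0.26 in log2(Signal), males minus females. Gapdh1 gave -0.19 (95% interval -0.34 to -0.03, adjusted p = 0.0271) and Eno -0.15 (-0.27 to -0.02, adjusted p = 0.0345). Pfk gave 0.26 (0.05 to 0.46, adjusted p = 0.0227) and Pgi 0.10 (0.01 to 0.19, adjusted p = 0.0385), all 4 short of the threshold. Hex-A gave 0.04, Ald1 (1631993_s_at) -0.07, Pgk -0.09 and Tpi -0.12, each with an interval that held 0.

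These sex differences depend on how the arrays are scaled. The methods describe scaling to a common median, but medians of the deposited arrays ran from 93.0 to 118 in females and from 143 to 158 in males. The trimmed means, in contrast, were nearly equal, and centring each array on its median moved the median sex difference of all probe sets tested by -0.52, from -0.19 to -0.72. After centring, 7 of the 9 were lower in males and 0 higher, where 66.1% of all probe sets tested were lower and 16.5% higher. Hex-A then gave -0.48 and Pgi -0.42, both reversed in sign. Centring moves every probe set by the same amount and so leaves their order as it was. The median of the 9 lay 0.12 above the median of all probe sets, and 9 of 9 lay above that median.

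The 2 Ald1 probe sets differed in their sex pattern. Ald1 (1633473_s_at) ranged from 2144 to 4103 in the 12 female arrays, with a median of 3388, and from 4954 to 6616 in the 12 male arrays, with a median of 5448. The sexes did not overlap, and 17.1% of all probe sets tested had all male arrays above all female arrays. The difference was 0.79 in log2(Signal) (SE 0.06, 1.73-fold, adjusted p = 4.26e-09, limma). Ald1 (1631993_s_at) ranged from 10848 to 14420 in females and from 9356 to 13737 in males, with wide overlap. After median centring the first probe set stayed higher in males, by 0.27, with an adjusted p of 0.00283 that missed the threshold.

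The ratio of the 2 probe sets on an array does not depend on that array's scaling. The log2 ratio of 1633473_s_at over 1631993_s_at ran from -2.75 to -1.45 in females (median -1.76) and from -1.42 to -0.73 in males (median -1.05), without overlap. Averaged over the 6 lines, the ratio was 0.865 higher in males (SD 0.254, n = 6 lines), and it was higher in 6 of 6 lines. The ratio was chosen after the sex patterns of both probe sets had been seen, so it is given as a description with no test. The gap ran from 0.59 in H line 2 to 1.29 in C line 1. The ratio shows an unequal change of the 2 probe sets. The sources used here do not say which Ald1 transcripts each of them reads.

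**Figure D2:**
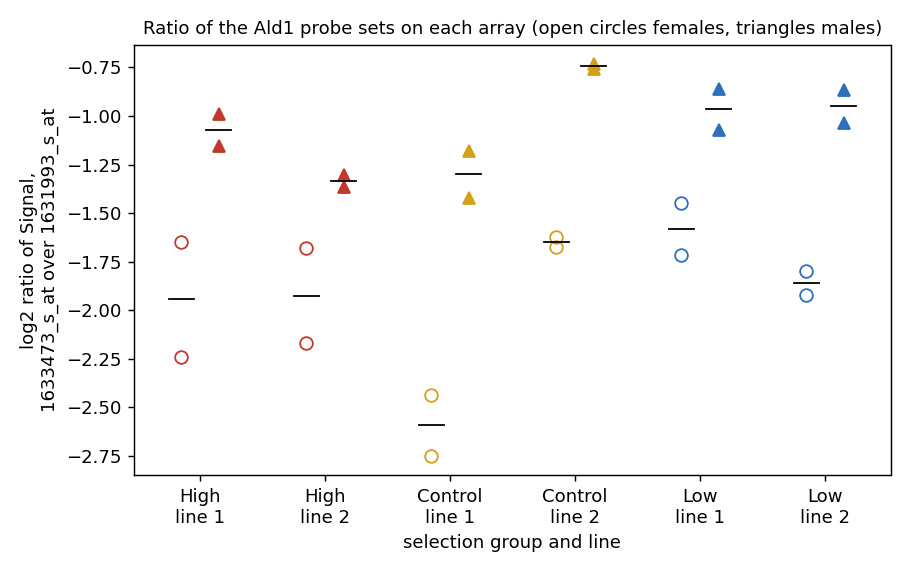
Log2 ratio of Signal of the Ald1 probe sets, 1633473_s_at over 1631993_s_at, for each array, by group and line; open circles are females, triangles are males and bars are means of 2 arrays. Males lie between -1.42 and -0.73 and females between -2.75 and -1.45, with the C line 1 females lowest.

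Most relatives of the glycolytic genes gave larger sex differences than any of the 9 probe sets above. Of 13 tested probe sets for phosphoglycerate mutases and paralogs, 11 were higher in males and 2 lower, where 25.6% of all probe sets tested were higher and 43.9% lower. The pyruvate kinase paralogs CG7069, CG12229, CG11249 and CG2964 were higher in males by 7.15, 6.31, 5.49 and 3.27 in log2(Signal), and the testis hexokinases Hex-t2 and Hex-t1 by 5.87 and 2.60. CG9010, a Gapdh paralog, was higher by 6.47, CG9961, a Pgk paralog, by 4.08, and the phosphoglycerate mutase genes Pglym87 and CG7059 by 3.88 and 2.31. All of these stayed higher in males by at least 1.79 after median centring. Hex-C, the other somatic hexokinase gene, was 0.46 higher, and after centring gave -0.06. Pglym78, the main phosphoglycerate mutase gene, was lower in males by -0.43 and Pfrx, which sets the level of the Pfk activator fructose 2,6-bisphosphate, by -0.41.

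Female Signal of several of these paralogs was near background, so their log2 differences are imprecise. Testis marker probe sets moved the same way, with 6 of 8 tested higher and 1 lower in males (25.6% and 43.9% of all probe sets tested). The filter took the median Signal over the arrays of both sexes. Probe sets near background in females therefore entered the test only through their male arrays. CG7069, for example, had a mean Signal of 4.52 in females and 430 in males. The paralog and testis counts thus depend in part on the filter, which kept 13 of 14 and 8 of 12 named probe sets. Summed over all 12 named testis probe sets, tested or not, Signal was 668 to 1279 in females and 29991 to 38036 in males. Their part in the paralog result was not tested.

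**Figure D3:**
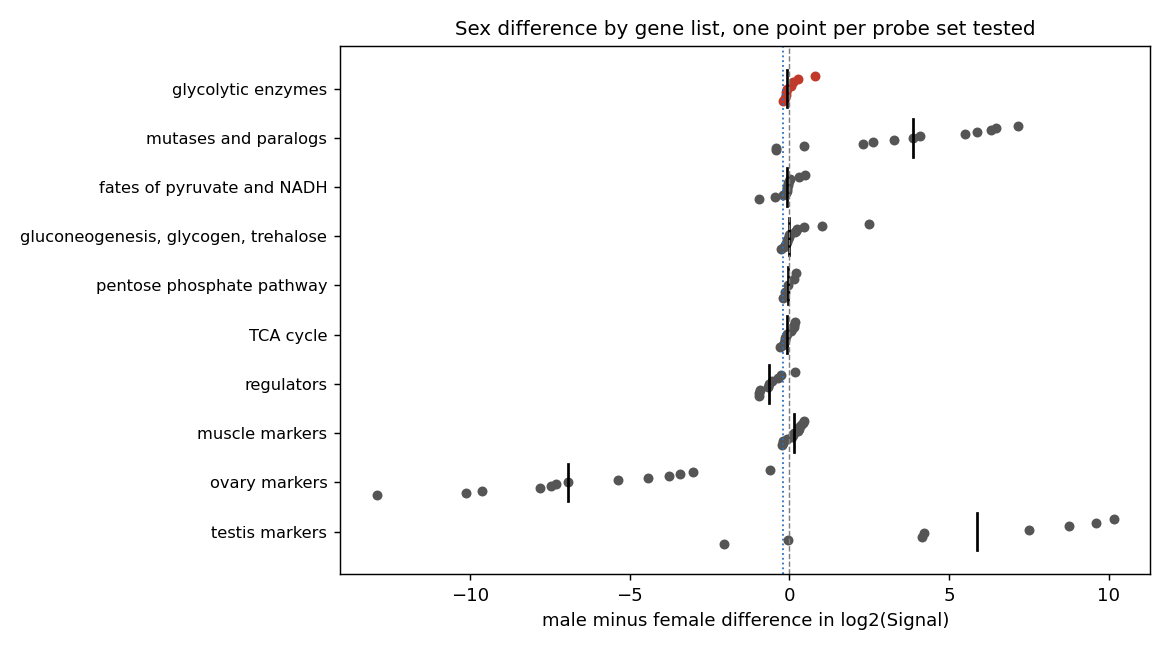
Male minus female difference in log2(Signal) for each tested probe set of 10 gene lists; 1 point is 1 probe set, the black bar is the list median, the dashed line is 0 and the dotted line is the median of all probe sets tested (-0.19). The 9 glycolytic points (red) lie between -0.19 and 0.79, whereas the points of the mutases and paralogs reach 7.15.

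Selection for locomotor reactivity left no called difference between H and L lines at any of the 9 glycolytic probe sets. With the sexes averaged, 0 of the 9 passed an adjusted p under 0.05, where 15.7% of all probe sets tested did (7.85% higher and 7.89% lower in H). Of the 9, 1 had an unadjusted p under 0.05. The H minus L contrast of a factorial analysis of variance of the linear Signal, adjusted over all probe sets tested, also called 1, Ald1 1633473_s_at. Its line effect in that analysis had an adjusted p of 0.00611, short of the 0.001 that the methods required before any contrast. The differences ran from -0.22 to 0.10 in log2(Signal), with a median of 0.01 against -0.01 for all probe sets. The 95% interval was -0.10 to 0.12 for Pgi, -0.11 to 0.14 for Ald1 1631993_s_at, -0.14 to 0.17 for Eno and -0.17 to 0.06 for Hex-A. For Gapdh1 it was -0.17 to 0.21. Those of Pfk, Tpi and Pgk reached -0.30, 0.31 and -0.31, so differences up to that size are not excluded there. All these intervals hold the spread between samples of a line and sex but not that between lines, so they do not bound a difference between groups. With 1 line left out, the estimate ran from -0.115 to 0.138 for Pgi and from -0.149 to 0.173 for Eno.

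**Figure D4:**
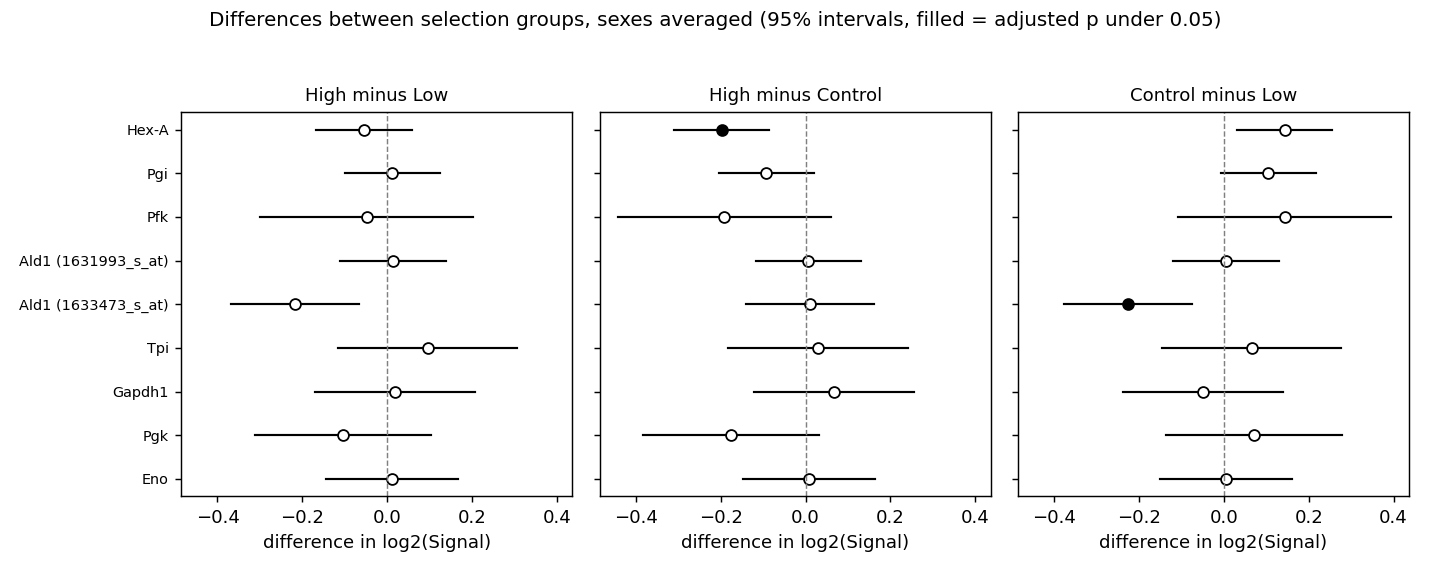
Difference in log2(Signal) between selection groups for each glycolytic probe set, sexes averaged; points are estimates, lines are 95% intervals and filled points have an adjusted p under 0.05. All High minus Low points are open, and the filled ones are Hex-A (-0.20) and Ald1 1633473_s_at (-0.23).

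Ald1 (1633473_s_at) came closest. Its Signal in males was 5176, 5191, 4954 and 5358 on the H arrays and 6616, 6147, 5867 and 5807 on the L arrays, so all 4 H males lay below all 4 L males, as they did for 4.23% of all probe sets tested. In females it was 2841, 3827, 2669 and 3381 on the H arrays and 3650, 4103, 3296 and 3395 on the L arrays, and the groups overlapped. H minus L was -0.22 (SE 0.07, 95% interval -0.37 to -0.07, 0.861-fold, adjusted p = 0.0514). It fell on the called side of the threshold without H line 1 female replicate 2 (-0.27, adjusted p = 0.0138) or H line 2 female replicate 2 (-0.26, adjusted p = 0.0238). With line as a random block it was not called.

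The 2 comparisons with the C lines share the C arrays, and each rested largely on C line 1. Between H and C, 1 of 9 was called, lower in H (11.2% of all probe sets were called, 4.36% higher and 6.82% lower). This was Hex-A, at -0.20 (SE 0.05, 0.872-fold, adjusted p = 0.026). Its Signal was 3833, 4061, 3687 and 3205 in C line 1 and 2854, 3285, 2866 and 3239 in C line 2, females before males. In H line 1 it was 3069, 3164, 3018 and 2852, and in H line 2 it was 2824, 2460, 3148 and 2925. All 4 C line 1 arrays lay above all 8 H arrays, as they did for 1.18% of all probe sets tested, and C line 2 overlapped the H lines. Without C line 1 the difference was -0.06 (adjusted p = 0.608), and without H line 2 it was -0.15 (adjusted p = 0.169). The call was also lost without any 1 of 8 arrays.

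Between C and L, 1 of 9 was called, lower in C (15.5% of all probe sets were called, 9.38% higher and 6.15% lower). This was Ald1 (1633473_s_at), at -0.23 (SE 0.07, 0.855-fold, adjusted p = 0.043). C line 1 gave 2465 and 2144 in females, the lowest values of all 24 arrays, and 5133 and 5068 in males. C line 2 gave 3606 and 3890 in females and 5538 and 6197 in males, within the range of the H and L arrays of each sex. Without C line 1 the difference was 0.00 (-0.000247, adjusted p = 0.999), without L line 1 -0.14 (adjusted p = 0.324) and without L line 2 -0.31 (adjusted p = 0.0605). Leaving out any 1 of 19 arrays also ended the call. With line as a random block, the adjusted p was 0.424 for Hex-A between H and C and 0.42 for this probe set between C and L.

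Within each sex, 0 of 9 differed between H and L in females (14.5% of all probe sets called) or in males (5.57%). The difference of H minus L between the sexes was called for 0 of 9 (0.551%). In females, Hex-A was lower in H than in C by -0.28 (adjusted p = 0.0398, 6.27% of all probe sets called, 3.96% lower in H). Its mean female Signal was 3947 and 3069 in C lines 1 and 2. In H lines 1 and 2 it was 3117 and 2642, so C line 2 lay below H line 1. Hex-A and Pgi were higher in C than in L females, by 0.28 and 0.24 (adjusted p = 0.0205 and 0.0379, 18.7% called, 9.93% higher in C). Mean Hex-A Signal was 3202 and 2573 in females of L lines 1 and 2, so C line 2 also lay below L line 1. Mean Pgi Signal was 9475 and 8576 in females of C lines 1 and 2. In those of L lines 1 and 2 it was 8681 and 6744, again with C line 2 below L line 1. These calls within females were not rerun with an array or a line left out. In males, 0 of 9 were called between H and C (3.06%) or between C and L (3.92%). Whether these comparisons with C differ between the sexes was not tested for them singly, and the line by sex interaction over all 6 lines called 0 of 9 (0.0437%).

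Over the 6 lines, a line effect was called for 0 of 9 at an adjusted p under 0.001 (4.76% of all probe sets called), with Ald1 1633473_s_at at 0.00996, Hex-A at 0.0157 and Pgi at 0.0534. In the study's procedure, groups were contrasted only for probe sets past the line or interaction threshold. In the fit reported here, none of the 9 passed either. Which probe sets passed in the study's own analysis was not checked here. Replicate lines of a group were also compared. The H lines differed in 0 of 9 (5.36% of all probe sets called). The C lines differed in 3 of 9 (5.57%): line 2 was lower than line 1 in Hex-A (-0.27, adjusted p = 0.0487) and Ald1 1631993_s_at (-0.30, adjusted p = 0.0498), and higher in Ald1 1633473_s_at (0.45, adjusted p = 0.016). The 2 aldolase probe sets thus moved in opposite directions between the C lines. These calls were unstable. With 1 array left out, all 3 held only without C line 1 male replicate 2, and 2 held without H line 2 female replicate 1 or 2. Without any 1 of 19 other arrays 1 held, and 0 held without C line 1 female replicate 2 or C line 2 male replicate 2. Median centring left 0, and no filter or a minimum Signal of 50 left 1.

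The L lines differed in 0 of 9 called (3.87%), yet 9 of 9 estimates were lower in line 2, from -0.04 to -0.45 with a median of -0.26, against 0.02 for all probe sets. Estimates were also lower in line 2 for 7 of 9 in H (median -0.07, against 0.03 for all probe sets). In C, 8 of 9 were lower (median -0.13, against 0.01). For 6 probe sets, Hex-A, Pgi, Pfk, Gapdh1, Pgk and Eno, the estimate was lower in all 3 groups. How many of all probe sets were lower in line 2 was not counted. Most of the 9 moved together from array to array, so these counts are not 9 separate observations. The methods describe 2 founding bottles, each divided among the groups, but do not say that the line number is the bottle. Whether the gap between lines differs between groups was not tested. The energy-yielding steps show the gap in L females. Eno gave 15044 and 16525 in L line 1 females and 11498 and 12113 in L line 2 females. Gapdh1 gave 18802 and 20194 against 13154 and 14435, and Pgk 8147 and 9137 against 5328 and 6600. In females, L line 2 lay wholly below L line 1 for 8 of 9 glycolytic probe sets, all but Ald1 1631993_s_at, and for 24.6% of all probe sets tested. Averaged over the sexes, Eno differed by -0.32 (SE 0.10, adjusted p = 0.101), Gapdh1 by -0.34 (SE 0.12, adjusted p = 0.149) and Pgk by -0.36 (SE 0.14, adjusted p = 0.159). Muscle marker probe sets were lower in L line 2 too, with a median of -0.43 and 0 of 13 called, and those of the tricarboxylic acid (TCA) cycle by a median of -0.28, with 0 of 12 called. Their part in the glycolytic values was not tested.

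Most glycolytic probe sets rose and fell together from array to array. After the mean of each sex was subtracted, the 36 pairs of probe sets had a median Pearson r of 0.62 over the 24 arrays (from -0.45 to 0.94, 29 above 0), and a median of 0.65 after the mean of each line and sex was subtracted, which leaves only the difference between replicate samples. Pgk followed the mean of the other 8 most closely (r = 0.94), then Eno (0.92), Pfk (0.88) and Gapdh1 (0.85). Hex-A stood at 0.66, Ald1 1631993_s_at at 0.42 and Ald1 1633473_s_at at -0.19. The points share arrays, samples and the scaling of each array, so these values are descriptions.

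The array pattern of the glycolytic mean was shared by muscle and by mitochondrial transcripts. Its r was 0.83 with the mean of 13 muscle marker probe sets (0.90 within line and sex) and 0.85 with that of 12 TCA cycle probe sets (0.98 within line and sex), over 24 arrays. The Ald1 probe sets shared this pattern least, with r to the muscle mean of -0.21 (1633473_s_at) and 0.34 (1631993_s_at). The other glycolytic probe sets lay between 0.63 (Hex-A) and 0.92 (Tpi). Further gene lists also followed the glycolytic mean in part. Their r was 0.64 for the fates of pyruvate and NADH (0.77 within line and sex) and 0.48 for gluconeogenesis, glycogen and trehalose (0.30). It was 0.42 for testis markers (0.57) and -0.41 for regulators of glycolytic genes (-0.66). The arrays lowest in the glycolytic mean were L line 2 female replicate 1 (-0.30, with the muscle mean at -0.86) and H line 2 female replicate 2 (-0.28, muscle -0.54). L line 2 female replicate 2 (-0.19, muscle -0.56) and C line 1 male replicate 2 (-0.17, muscle -0.53) were also low in both, as differences in mean log2(Signal) from the mean of the sex. C line 2 male replicate 1 was low in the glycolytic mean (-0.18) with a muscle mean of -0.13. In that C line 1 male sample Tpi was 8663, against 14022 in the other replicate, and Pgk 5692 against 8758.

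The summed Signal of the muscle markers ran from 60403 to 127461 in H females, 100328 to 119213 in C females and 47658 to 110116 in L females. In males it ran from 73207 to 121112 in H, 57349 to 116205 in C and 68942 to 109293 in L, and no marker had a median near 0, the lowest being a sls probe set at 604. Between H and L, 0 of 13 muscle markers were called (15.7% of all probe sets tested), with a median of 0.17. Between H and C, 2 were lower in H and 0 higher (6.82% and 4.36%). Between C and L, 2 were higher in C and 0 lower (9.38% and 6.15%). In females, 1 was lower in H than in C (3.96%) and 3 were higher in C than in L (9.93%). In males, 0 were called in these comparisons. The muscle markers' part in the glycolytic values was not tested beyond 2 fits chosen after the data were seen. Without 3 of the 4 arrays low in both means (L line 2 female replicate 1, H line 2 female replicate 2 and C line 1 male replicate 2), 1 of 9 was called between H and L, Ald1 1633473_s_at at -0.26 (adjusted p = 0.0495). The remaining low array, L line 2 female replicate 2, was kept, since leaving out both would remove all females of that line. With the muscle mean as a covariate, 1 of 9 was called between H and L, Pgk, lower in H by -0.23 (adjusted p = 0.00819, against 0.514 without it).

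**Figure D5:**
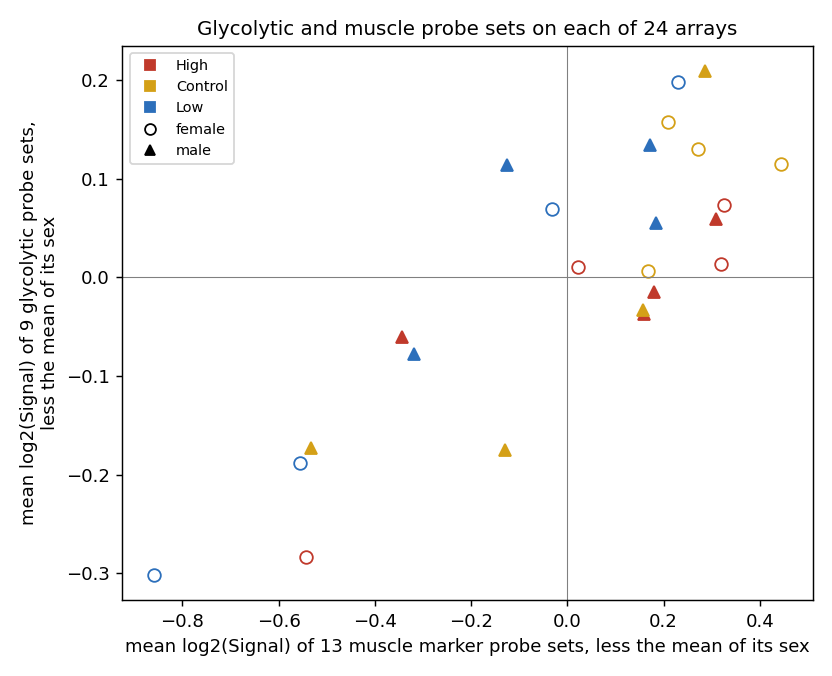
Mean log2(Signal) of the 9 glycolytic probe sets against that of 13 muscle marker probe sets, each less the mean of its sex; 1 point is 1 of 24 arrays, coloured by group, with open circles for females and triangles for males. The points rise together (r = 0.83), and 4 arrays lie at a muscle mean of -0.53 or lower.

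The 5 probe sets outside glycolysis whose sex-centred pattern was most like the glycolytic mean were chosen by Pearson r over the 24 arrays. They were ATPsynCF6 (0.96), which encodes a coupling subunit of the mitochondrial ATP synthase, Gpdh1 1634893_at (0.96), the cytosolic glycerol 3-phosphate dehydrogenase that reoxidizes glycolytic NADH, UQCR-6.4 (0.95), a subunit of respiratory complex III, a probe set with no gene name here (0.94), and Scp1 (0.93), a sarcoplasmic calcium-binding protein.

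Among 68 probe sets of 6 lists of genes next to glycolysis, 10 were called between H and L (14.7%, near the 15.7% of all probe sets tested). Of 13 probe sets for the fates of pyruvate and NADH, 3 were lower in H and 0 higher, where 7.89% of all probe sets tested were lower and 7.85% higher. They were Got2, the mitochondrial aspartate aminotransferase of the malate-aspartate shuttle (-0.46, SE 0.07, adjusted p = 0.000277), and 2 of the 4 Gpdh1 probe sets, 1625949_at (-0.24, adjusted p = 0.0168) and 1636311_at (-0.31, adjusted p = 0.0414). The other 2 gave -0.16 and -0.08 and were not called. Got1, the cytosolic aminotransferase, named after its values were seen, was the 1 probe set of the list with a line effect (adjusted p = 3.12e-06). It was lower in H than in C by -0.69, and H minus L was 0.13 (adjusted p = 0.137).

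Of 16 probe sets for gluconeogenesis, glycogen and trehalose, 2 were lower in H than in L and 1 was higher (7.89% and 7.85% of all probe sets tested). Pepck1, which makes phosphoenolpyruvate from oxaloacetate, was lower by -1.09 (SE 0.17, adjusted p = 0.000477), the farthest of the list from 0, and its paralog Pepck2 by -0.63 (SE 0.15, adjusted p = 0.0125). CG5177, a trehalose 6-phosphate phosphatase gene, was higher by 0.40 (SE 0.09, adjusted p = 0.00853). In the TCA cycle, 2 of 12 were higher in H and 0 lower (7.85% and 7.89% of all probe sets tested): Idh3b, a subunit of NAD-dependent isocitrate dehydrogenase (0.37, adjusted p = 0.02), and CG5214, an E2 component of the oxoglutarate dehydrogenase complex (0.26, adjusted p = 0.0311).

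Of 9 probe sets for regulators of glycolytic genes, 7 were lower in males (43.9% of all probe sets tested) and 2 were lower in H than in L (7.89%). The latter were Mondo, a sugar-sensing transcription factor (-0.26, adjusted p = 0.0124), and Hph, the oxygen-sensing prolyl hydroxylase (1638797_a_at, -0.25, adjusted p = 0.0413). The other Hph probe set, 1624497_at, gave 0.34 (adjusted p = 0.0662). In the pentose phosphate pathway, 0 of 5 were called for sex (69.5% of all probe sets tested) or between H and L (15.7%). Among the 13 mutases and paralogs, 0 were called between H and L (15.7%), with differences of -0.44 to 0.38.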

How the data were processed

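The table analysed holds the authors' deposited Signal intensity on a linear scale for 18769 probe sets on 24 Affymetrix Drosophila GeneChip 2.0 arrays. Signal is the MAS5 metric, computed by the authors from perfect-match and mismatch probes with Affymetrix Microarray Suite 5.0 and scaled per array. The methods describe that scaling as to a common median, which the array medians (93.0 to 158) do not show. With the top and bottom 2% of probe sets trimmed, mean Signal was 497.1 to 498.8 per array. The sources used here name no genome build, scan date or array batch. Column names gave each array's sample, with 0 columns left over.

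log2(Signal) was fitted with limma 3.58.1 (R 4.3.3) over the 12 means of line and sex, for the 11439 probe sets whose median Signal reached 75, with 12 residual degrees of freedom. P-values were adjusted over all probe sets tested (Benjamini-Hochberg). The threshold was 0.001 for line, sex and interaction, as in the methods, and 0.05 for contrasts of groups or lines. The number of arrays limits the precision. Only the 13646 probe sets with a single gene symbol were named, since 402 listed several and 4721 listed none. The probe sets named are all glycolytic ones, every tested paralog, up to 3 of each other list by p between H and L, and the 5 most correlated with the glycolytic mean. The members and lists were chosen with earlier results of these data known. Whether same-numbered replicates pair was checked: their deviations had a median r of -0.01 over 66 pairs of line and sex, 6 of them above 0.1, so the number was not used as a block. Alternatives were other scales, normalizations, filters, error terms and thresholds, and leaving out each array and each line. Python 3.11.15, pandas 2.3.3 and NumPy 2.4.6 were used.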

Additional observations from a re-analysis of the deposited data

How the results depend on the processing

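The number of arrays and of lines sets the limits here. Each group holds 2 lines, and H against L gave 0 calls over all probe sets by limma with line means as the samples (1100 at an unadjusted p below 0.05), 0 with line number added to that fit as a block (1162), 398 with line as a random block and 1801 in the fit reported. The counts below are of the 9 glycolytic probe sets called. H against L, 0 lower as reported, became 1 lower with log2(Signal + 50), quantile normalization, a median Signal of at least 150, the contrasts of the linear analysis of variance, without 3 of the 4 arrays low in muscle markers and with the muscle covariate. With the replicate block it also became 1 (Ald1 1633473_s_at, adjusted p = 0.0463), and the C lines gave 1 in place of 3. H against C, 1 lower, became 2 with quantile normalization, and 0 with median centring, no filter, a random block for line, line means (also with line number as a block) and without those 3 arrays. C against L, 1 lower, became 0 with quantile normalization, no filter, a random block for line, line means (also with line number as a block), each gene once, without those 3 arrays and with the muscle covariate, and 1 was called higher (0 as reported) with quantile normalization and the linear analysis of variance. The C lines, 3 called, gave 0 with median centring and 1 with a minimum of 50 or no filter, and the L lines, 0 called, gave 1 with the linear analysis of variance. For sex, 1 higher became 0 with median centring or each gene once and 2 with the muscle covariate, and 0 lower became 7 with median centring, where Hex-A (-0.4843) and Pgi (-0.4217) reversed. The line effect, 0 called, became 1 at an adjusted p under 0.01 and 2 under 0.05. The causes were not tested.

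With single arrays or lines left out, the counts ran from 0 to 1 for H against L, H against C and C against L in each direction that moved, and from 0 to 3 for the C lines. Hex-A between H and C kept its call without 16 of 24 arrays and lost it without 8 (adjusted p 0.0198 to 0.0644), namely H line 1 female 1 and male 2, H line 2 female 2 and male 2, C line 1 female 2 and male 1, and C line 2 female 2 and male 2. Ald1 1633473_s_at between C and L lost its call without 19 arrays (0.0218 to 0.0953), all but the 4 H females and C line 1 female 1. The Ald1 ratio was 0.855 with log2(Signal + 50), and 0.779 to 0.92 with a line left out. Interaction, the sex difference of H minus L and the H lines gave 0 in each setting run.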

Other observations

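In 54 groups of 4 arrays (the 9 glycolytic probe sets by selection group and sex), 0 held an array far enough from the other 3 to pass Dixon's critical value, where chance flags about 1 group in 20. A factorial analysis of variance with the methods' model was run on linear Signal, with the filter and adjustment used here. It gave 507 probe sets with a line effect, 27 with an interaction and 7833 with a sex difference (adjusted p under 0.001). The study filtered by detection calls instead and reported more probe sets for line, interaction and sex alike, so these counts are not its own.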
